A study of Mus musculus with 6 samples.

Results

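The ETn and MusD repeats are a family of mouse endogenous retroviruses, represented in the repeat counts by 5 names of 1217. They are the names that begin with ETnERV, MMETn or RLTRETN: MMETn-int, ETnERV-int, ETnERV2-int, ETnERV3-int and RLTRETN_Mm. Names ending in -int are internal regions, and RLTRETN_Mm is the long terminal repeat (LTR) that flanks them. Each name sums the reads on many genomic copies, so a value describes a class of elements and not a locus. The members were chosen by name, but the family was proposed with the knockout against control values of these same embryos known. Its differences between the groups are therefore described with their errors, and no p-value is given for them.

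RNA came from 6 whole mouse embryos at E10.5, 3 in each of 2 groups. Knockout embryos were H3f3afl/- and H3f3bfl/-, with a null and a floxed allele of both genes of histone H3.3, the H3 variant that is deposited outside replication, so that recombination leaves none intact. Control embryos were H3f3afl/+ and H3f3bfl/+, with a wild-type allele of each in place of the null one. Both groups were Sox2-CreTg/0 and Trp53-/-, so the controls too carried the recombinase, which acts in the epiblast and leaves most extraembryonic cells undeleted, and lacked the tumour suppressor p53. The strain was mixed C57BL/6 CD1 129, and the labels do not give each embryo's share of these, its litter or any pooling of RNA. P-values then measure only the spread between these samples, which may be partly technical, and copies of the elements can differ between strains.

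Early transposons (ETn) are retrotransposons that have lost the retroviral genes and move with the proteins of MusD elements, their coding relatives. MusD elements carry gag, pro and pol but no envelope gene, and both kinds share similar LTRs, which hold the promoter and the polyadenylation signal. Both are transcribed in early mouse embryos, and new ETn insertions are a known source of mouse mutations. In embryonic stem cells they are repressed by KRAB zinc finger proteins with TRIM28 and SETDB1, and H3.3 has been found on such elements there. The counts carry no copy number or length per name, so levels are compared between embryos and not between names, and the files do not separate ETn from MusD transcripts.

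The libraries held 24952853 to 27871038 gene counts in knockouts and 27775576 to 30461689 in controls. The repeat tables held 2661391 to 3106068 counts in knockouts and 3085867 to 4600118 in controls, of which structural RNA was 36.4% to 60.2% in knockouts and 57.8% to 76.6% in controls. H3f3a had 67.6 ± 2.91 CPM in knockouts and 349 ± 15.4 CPM in controls (SD, n = 3 each; CPM are counts per 1000000 TMM-scaled gene counts), a log2 fold change of -2.37 at an edgeR adjusted p of 1.5e-06. H3f3b had 455 ± 56.8 CPM in knockouts and 691 ± 31.5 CPM in controls, a log2 fold change of -0.60 at an edgeR adjusted p of 0.0257. The library codes in the file names, whose meaning the labels do not give, differ between knockouts and controls, so what they mark and genotype cannot be told apart. Listed markers of neural tissue, somites and heart were found in every library. Of the 5 heart markers only Nppa was called by edgeR, which called 83 of all 15052 tested genes higher. Nppa had 39.7 ± 11.3 CPM in knockouts and 13.5 ± 3.03 CPM in controls (edgeR adjusted p = 0.0139). The other heart markers had log2 fold changes of -0.03 for Myh6, -0.02 for Actc1, -0.11 for Nkx2-5 and 0.20 for Tnnt2. Of 10 tested macrophage markers 9 were lower in the knockouts by edgeR, where 0.957% of all 15052 tested genes were, and the list summed to 1.68 to 2.55 CPM in knockouts and 58.0 to 71.1 CPM in controls, with C1qb and C1qc at 0 in the knockouts.

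ETn and MusD counts were higher in all 3 knockout embryos than in any control embryo when scaled by gene counts. The 5 names together had 775, 598 and 813 counts per 1000000 gene counts (gene-scaled CPM) in knockouts 1, 2 and 3, against 386, 527 and 466 in controls 1, 2 and 3. Knockout 2 was the lowest knockout and control 2 the highest control, and the groups did not overlap. The means were 729 ± 115 in knockouts and 459 ± 70.6 in controls (SD, n = 3 each), a log2 fold change of 0.67 ± 0.23 (SE, edgeR quasi-likelihood fit over all repeat names). Most repeat names were also higher on this scale. The median log2 fold change was 0.54 over the 853 names that passed the filter on low counts, with 803 of them above 0. All 5 members passed that filter. More transcript per cell and more cells that express it cannot be told apart in whole embryos. Nor do reads counted on a copy show where their transcript began.

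**Figure D1:**
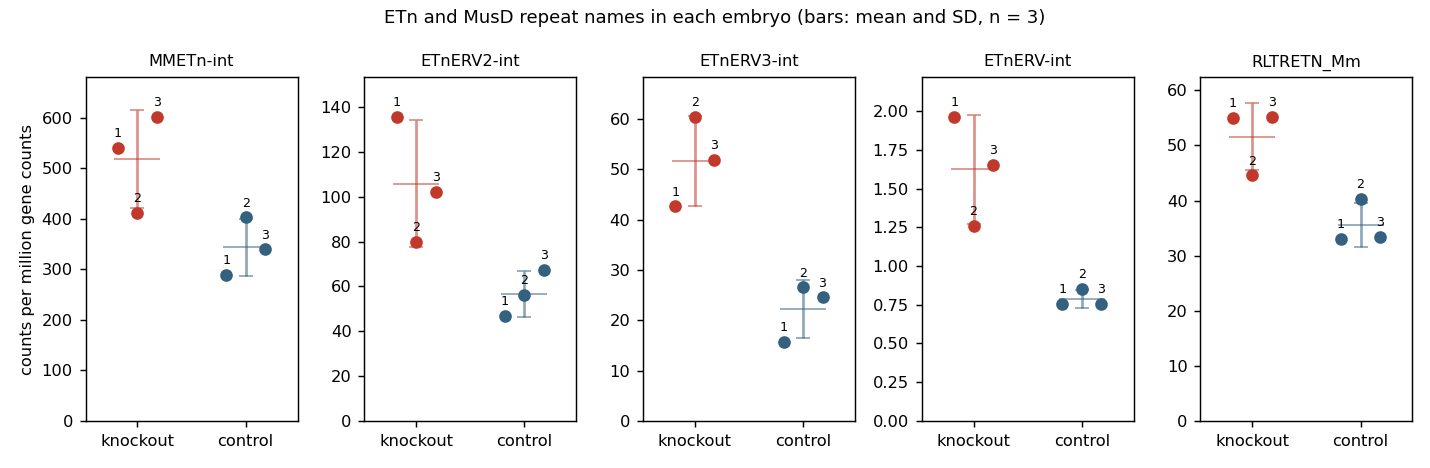
Gene-scaled CPM (y axis, from 0, a separate scale in each panel) of the 5 ETn and MusD names in knockout and control embryos; points are embryos with their replicate number, bars are mean and SD of 3. In each panel the 3 knockout embryos lie above the 3 controls, by least for MMETn-int, where knockout 2 at 412 is close to control 2 at 403.

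Among internal regions, MMETn-int gave most of the counts. It took 68.9% to 74.1% of the family's counts in knockouts and 72.9% to 76.5% in controls. MMETn-int had 539.9, 412 and 602 gene-scaled CPM in knockouts 1, 2 and 3, against 289.6, 403 and 339.5 in controls 1, 2 and 3. Knockouts 1 and 3 were well above every control, whereas knockout 2 barely exceeded control 2. The means were 518 ± 96.8 in knockouts and 344 ± 56.7 in controls (SD, n = 3 each), and the log2 fold change was 0.59 ± 0.24 (SE), close to the median of all repeat names.

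ETnERV2-int, the next most counted internal name, differed more. ETnERV2-int had 136, 79.7 and 102 gene-scaled CPM in knockouts 1, 2 and 3, against 46.7, 56.2 and 67.3 in controls 1, 2 and 3. All knockouts were above all controls, and knockout 1 was the highest. The means were 106 ± 28.2 and 56.7 ± 10.3 in knockouts and controls (SD, n = 3 each), with a log2 fold change of 0.90 ± 0.27 (SE).

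ETnERV3-int had the largest fold of the family and a different order among the knockouts. It had 42.6, 60.5 and 51.9 gene-scaled CPM in knockouts 1, 2 and 3, against 15.8, 26.5 and 24.6 in controls 1, 2 and 3, from 1064, 1680 and 1447 against 480, 808 and 682 counts. Knockout 2, the lowest knockout for the other 4 names, was the highest here, and the lowest knockout exceeded the highest control by a wide margin. The means were 51.7 ± 8.92 in knockouts and 22.3 ± 5.74 in controls (SD, n = 3 each), 2.32-fold, with a log2 fold change of 1.21 ± 0.28 (SE). Of all 853 tested names 40 had a larger log2 fold change, and of the 476 with a mean of at least 5 gene-scaled CPM, 2 did. The contrast behind these ranks was known when the family was proposed, so nothing is read from them.

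ETnERV-int was sparse, with 49, 35 and 46 counts in knockouts 1, 2 and 3 and 23, 26 and 21 in controls 1, 2 and 3. This was 1.96, 1.26 and 1.65 gene-scaled CPM in the knockouts and 0.755, 0.854 and 0.756 in the controls, means of 1.62 ± 0.353 and 0.788 ± 0.0568 (SD, n = 3 each), with no overlap. Its log2 fold change was 1.04 ± 0.35 (SE), and 83 of the 853 names had a larger one.

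The LTR name, RLTRETN_Mm, was the member that differed least. RLTRETN_Mm had 55.1, 44.6 and 55.2 gene-scaled CPM in knockouts 1, 2 and 3, against 33.0, 40.2 and 33.4 in controls 1, 2 and 3. Knockout 2 and control 2 were again the nearest pair. The means were 51.6 ± 6.11 and 35.5 ± 4.07 in knockouts and controls (SD, n = 3 each), and the log2 fold change of 0.54 ± 0.23 (SE) equalled the median of all repeat names.

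**Figure D2:**
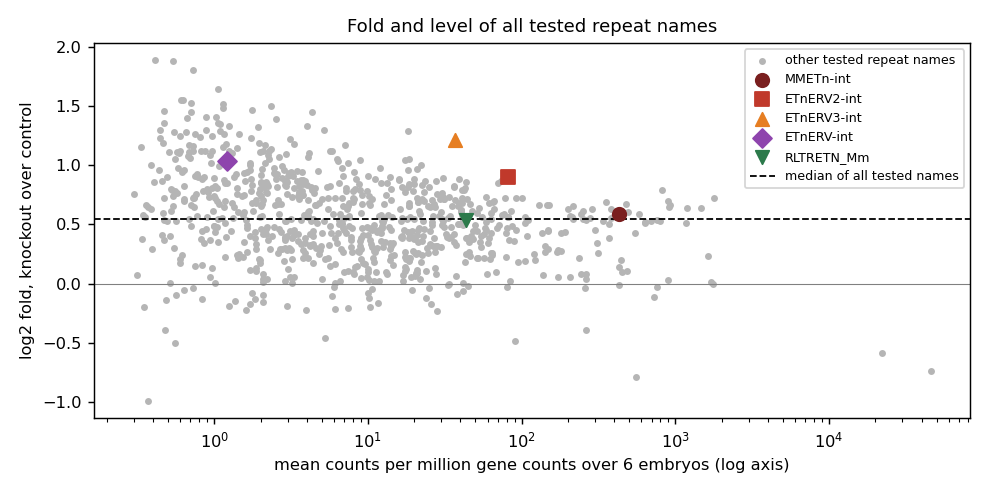
Log2 fold change of knockout over control embryos (y axis) against mean gene-scaled CPM over the 6 embryos (x axis, log scale) for the 853 tested repeat names; the dashed line is their median of 0.54. MMETn-int and RLTRETN_Mm lie near the median line, and ETnERV3-int at 1.21 and ETnERV2-int at 0.90 lie above most names of their level.

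All 5 members had the groups fully apart, as did 10.3% of the 853 tested names in the same direction. That contrast was known when the family was proposed, so nothing is read from the count. At an adjusted p under 0.05 edgeR called 0% of repeat names, members included, with 99 names, or 11.6%, at an unadjusted p under 0.05, all of them higher. DESeq2 called 2 names, or 0.234%, which were ETnERV3-int and RMER17A-int. The number of calls moved with knockout 2: without that library edgeR called 574 of 895 names, 572 of them higher and all 5 members among them. The calls of members use the contrast that was known when the family was proposed, so nothing is read from them either.

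The shift of the median repeat name was not alike in the 3 knockouts. Against the control mean, the median of the 848 other tested names was at 0.67, -0.10 and 0.68 on the log2 scale in knockouts 1, 2 and 3, and at -0.22, -0.06 and 0.23 in controls 1, 2 and 3. Reads outside genes were likewise more frequent in knockouts 1 and 3, with 18.3%, 10.6% and 18.02% of alignments in the knockouts and 9.79%, 10.7% and 13.1% in the controls. Over the 6 libraries, Pearson's r of log2 gene-scaled CPM with this percentage was 0.84 for the family sum and 0.50 for ETnERV3-int. For the other members it was 0.79 to 0.89. The part of reads outside genes in the differences of the members was not tested beyond these and the rescaled values given here.

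In knockout 2, both reads outside genes and the median repeat lay within the range of the controls, and every member was above each control. ETnERV3-int was at 1.44 on the log2 scale there, ETnERV-int at 0.68, ETnERV2-int at 0.49, RLTRETN_Mm at 0.33 and MMETn-int at 0.26. With a pseudocount of 0.5, 1 of the 853 tested names was further above the control mean in knockout 2 than ETnERV3-int, and 54 were further above than MMETn-int, the lowest member. In knockouts 1 and 3 the members sat nearer the middle of the table, and 454 and 466 names were further above the control mean than RLTRETN_Mm. ETnERV2-int stood out in knockout 1, where 33 names were further above, and ETnERV3-int in knockout 3, where 50 were. These ranks come from values known when the family was proposed, so they describe the embryos and test nothing. Those of knockout 2 rest on 1 embryo.

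**Figure D3:**
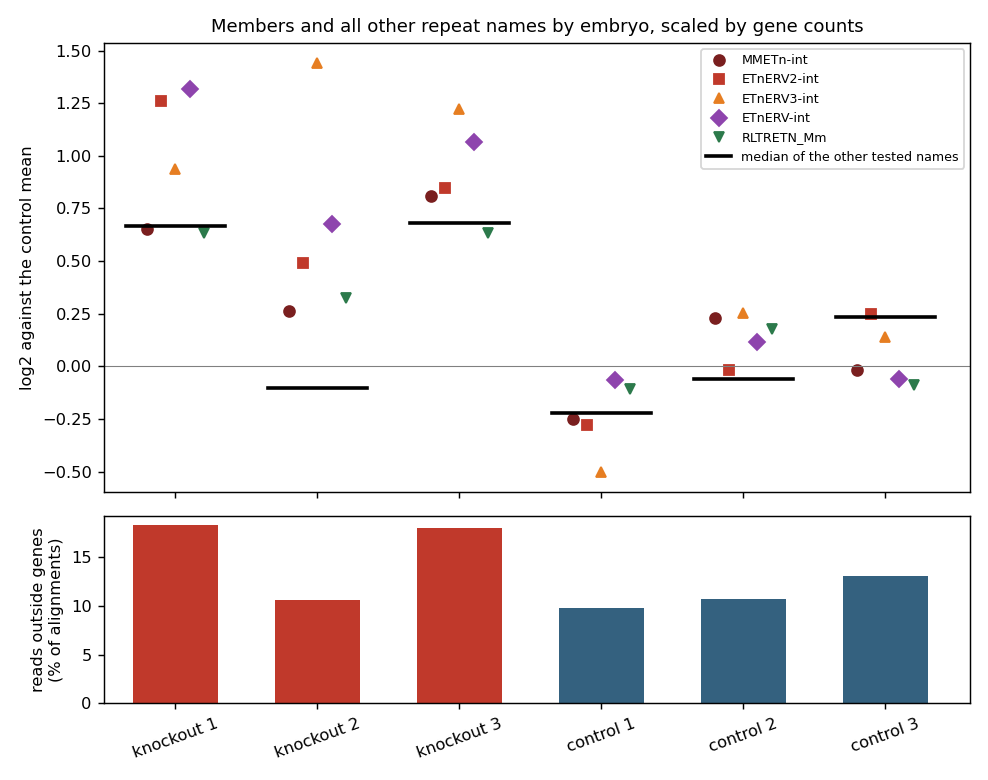
Top, log2 level of the 5 members against the control mean in each embryo (y axis, scaled by gene counts), with the median of the 848 other tested repeat names as black lines; bottom, reads outside genes as a percentage of alignments. In knockouts 1 and 3 the black lines are at 0.67 and 0.68 with several members near them, while in knockout 2 the line is at -0.10 and all members are above it.

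Scaled by other repeats, all 5 folds were smaller, and those of 3 internal names stayed well above the median of all names, at 0.076. Relative to repeat counts without structural RNA and simple repeats, ETnERV3-int had 903, 2247 and 1073 counts per 1000000 such counts in knockouts 1, 2 and 3, against 633, 915.5 and 709 in controls 1, 2 and 3. Knockout 1 lay just under control 2 and the groups overlapped, with a log2 fold change of 0.90 ± 0.33 (SE). Knockout 2 set this value, and without it the log2 fold of the means was 0.39. ETnERV2-int had 2874, 2962 and 2113 in the knockouts, against 1877, 1938 and 1945 in the controls, still without overlap, and a log2 fold change of 0.46 ± 0.14. ETnERV-int had 41.6, 46.8 and 34.1 in the knockouts, against 30.3, 29.5 and 21.8 in the controls, also apart, at 0.57 ± 0.24.

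MMETn-int and RLTRETN_Mm did not stand apart on that scale. MMETn-int had 11434, 15323 and 12447 counts per 1000000 other repeat counts in knockouts 1, 2 and 3, against 11635, 13895 and 9808 in controls 1, 2 and 3. The groups overlapped widely, and its log2 fold change was 0.15 ± 0.16 (SE). For RLTRETN_Mm the log2 fold change was 0.11 ± 0.19, also with overlap. For both names the SE exceeded the fold.

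Relative to reads outside genes the pattern was similar. The log2 fold changes were 0.86 ± 0.38 (SE) for ETnERV3-int, 0.50 ± 0.25 for ETnERV-int, 0.40 ± 0.16 for ETnERV2-int, 0.09 ± 0.20 for MMETn-int and 0.05 ± 0.23 for RLTRETN_Mm. On this scale the groups were apart for 1 member, ETnERV-int, while 9.03% of all tested names were apart and higher. By other repeat counts 2 members were apart, with 10.8% of all tested names. The family sum was 2551, 3994 and 2758 per 1000000 reads outside genes in knockouts 1, 2 and 3, against 2638, 3261 and 2313 in controls 1, 2 and 3. Knockouts 1 and 3 lay within the controls and knockout 2 above them. Without knockout 2 the log2 fold of the means was -0.044 for the sum, 0.27 for ETnERV3-int, 0.25 for ETnERV2-int, 0.35 for ETnERV-int, -0.11 for MMETn-int and -0.21 for RLTRETN_Mm.

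**Figure D4:**
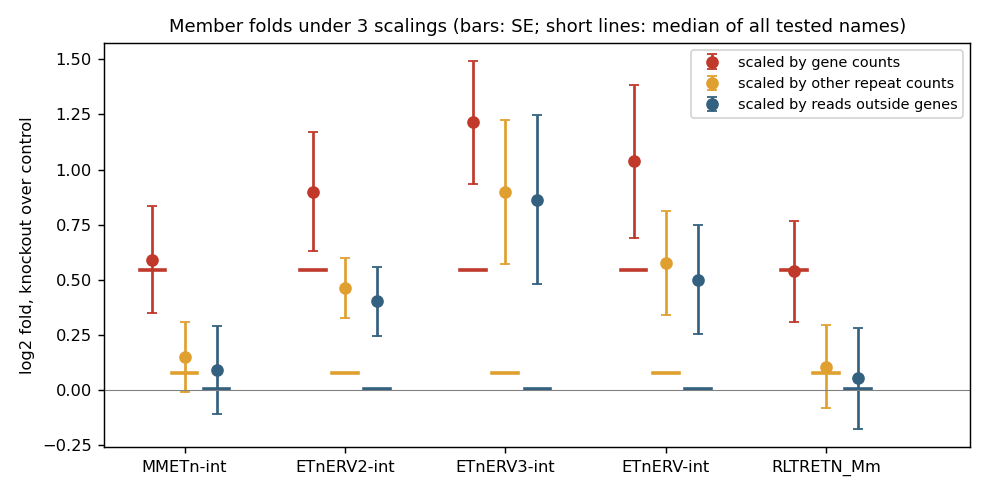
Log2 fold change of knockout over control embryos (y axis; points with SE bars) for each member, scaled by gene counts, by other repeat counts or by reads outside genes; short lines are the median of all tested repeat names under the same scaling. MMETn-int and RLTRETN_Mm follow the medians, and ETnERV2-int, ETnERV3-int and ETnERV-int lie above them by 0.36 to 0.86 under the 3 scalings.

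The share of all internal names together overlapped between the groups, as did the shares of ETnERV2-int, MMETn-int and RLTRETN_Mm. Internal names took 92.9%, 92.6% and 93.2% of the family's counts in knockouts 1, 2 and 3, against 91.5%, 92.4% and 92.8% in controls 1, 2 and 3, and the groups overlapped. ETnERV3-int took 5.50%, 10.1% and 6.38% in the knockouts and 4.08%, 5.04% and 5.27% in the controls, without overlap. ETnERV-int took 0.253%, 0.211% and 0.203% in the knockouts and 0.196%, 0.162% and 0.162% in the controls, also without overlap, from 21 to 49 counts a library. Leaving out MMETn-int, which dominates the sum, internal names took 76.6%, 76.0% and 73.8% of the rest in the knockouts and 65.7%, 67.5% and 73.5% in the controls. The groups did not overlap there, though control 3 was close to the lowest knockout. How often the share of a repeat name lies apart in this way was not counted, so nothing is read from these shares.

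Other retroviral families were summed in the same way. The summed IAP names, with the related RLTR10 LTRs, another family of retrovirus-like elements, had 298, 189 and 273 gene-scaled CPM in knockouts 1, 2 and 3, against 173, 212 and 254 in controls 1, 2 and 3. MERVL and MT2 names, known from cleavage-stage embryos, had 473, 276 and 484 in the knockouts, against 264, 299 and 364 in the controls. RMER names had 1136, 642 and 1141 in the knockouts, against 544, 634 and 797 in the controls. On this scale knockout 2 lay within the range of the controls in each of these families, and above it for the ETn and MusD sum. MuLV and VL30 names had 393, 161 and 318 in the knockouts, against 261, 286 and 325 in the controls, with knockout 2 below every control. Per 1000000 reads outside genes, RMER names had 3737, 4286 and 3869 in the knockouts, against 3718, 3929 and 3959 in the controls, so that knockout 2 lay above every control there, as it did for the ETn and MusD sum. The difference between families was not tested.

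Among repeat names outside the family, the 5 whose pattern over the 6 libraries was most like the ETn and MusD sum were taken. By Pearson's r of log2(gene-scaled CPM + 0.5), without a test, AluG_3 was at 0.99, and Tigger1, HAL1-2a_MD, (CCCCCG)n and MTA_Mm-int were at 0.95 to 0.96. All points share the libraries and their share of reads outside genes, and the median r over the 472 names outside the family with a mean of at least 5 was 0.81, so a high value is common.

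Genes that silence endogenous retroviruses, restrict retroelements or bind the LTR were tested next. None of 51 tested genes in these 3 lists was called by edgeR, where 1.51% of all genes were, and 7 had an unadjusted p under 0.05, where 19.2% of all genes did. DESeq2 called 1 of them, Ogt, where it called 5.19% of all genes. Without knockout 2 edgeR called 4 of them, Morc2a, Ogt, Suv420h2 and Zfp57, where it called 10.9% of all genes. The median log2 fold change of the 42 tested silencing genes was 0.02, against -0.00099 over all 15052 tested genes, with 20 below 0 and a range of -0.23 to 0.65. Trim28, the scaffold that KRAB zinc finger proteins recruit, had 535.9, 611 and 552 CPM in knockouts 1, 2 and 3, against 666, 628 and 625 CPM in controls 1, 2 and 3. Its log2 fold change was -0.18 ± 0.08 (SE; edgeR adjusted p = 0.282).

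Setdb1, the H3K9 methyltransferase that works with it, and Dnmt1, the maintenance DNA methyltransferase, had folds of 0.15 ± 0.07 and 0.17 ± 0.08 on the log2 scale (SE), with edgeR adjusted p-values of 0.296 and 0.253. Both were higher in every knockout than in any control, while Trim28 was lower in every knockout than in any control. How often a gene lies apart in this way was not counted, so nothing is read from it. Setdb1 had 138 to 159 CPM in knockouts and 130 to 136 CPM in controls, and Dnmt1 441 to 471 CPM and 388 to 426 CPM. Genes of H3.3 deposition had smaller folds: Atrx was at -0.11 ± 0.09, Daxx at 0.07 ± 0.08 and Hira at 0.05 ± 0.07, with edgeR adjusted p-values of 0.543 to 0.726. The smallest p of the silencing list belonged to Ogt, the O-GlcNAc transferase gene, with 389, 319.8 and 419 CPM in the knockouts and 252, 273 and 313 CPM in the controls. Its log2 fold change was 0.43 ± 0.12 at an edgeR adjusted p of 0.114, while DESeq2 gave an adjusted p of 0.0187. Next were Cbx1, an HP1 gene, at -0.23 ± 0.07, the remodeller gene Smarcad1 at -0.18 ± 0.06 and Morc2a at 0.20 ± 0.08, with edgeR adjusted p-values of 0.134 to 0.233.

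Restriction genes and LTR-binding factors gave no call by edgeR over the 6 libraries. Apobec3, a cytidine deaminase that restricts MusD in cell assays, was at -0.22 ± 0.16 (SE) and the helicase gene Mov10 at 0.21 ± 0.11, and the median over the 7 tested restriction genes was 0.04 on the log2 scale. Samhd1 and Trex1, a nucleotide hydrolase and a DNA exonuclease, were at -0.10 ± 0.07 and 0.12 ± 0.20. Sp1 and Sp3, zinc finger factors that bind the ETn LTR, were at 0.16 ± 0.09 and -0.18 ± 0.07. By edgeR the smallest adjusted p of these 6 was 0.217, for Sp3, and the largest 0.757, for Trex1.

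**Figure D5:**
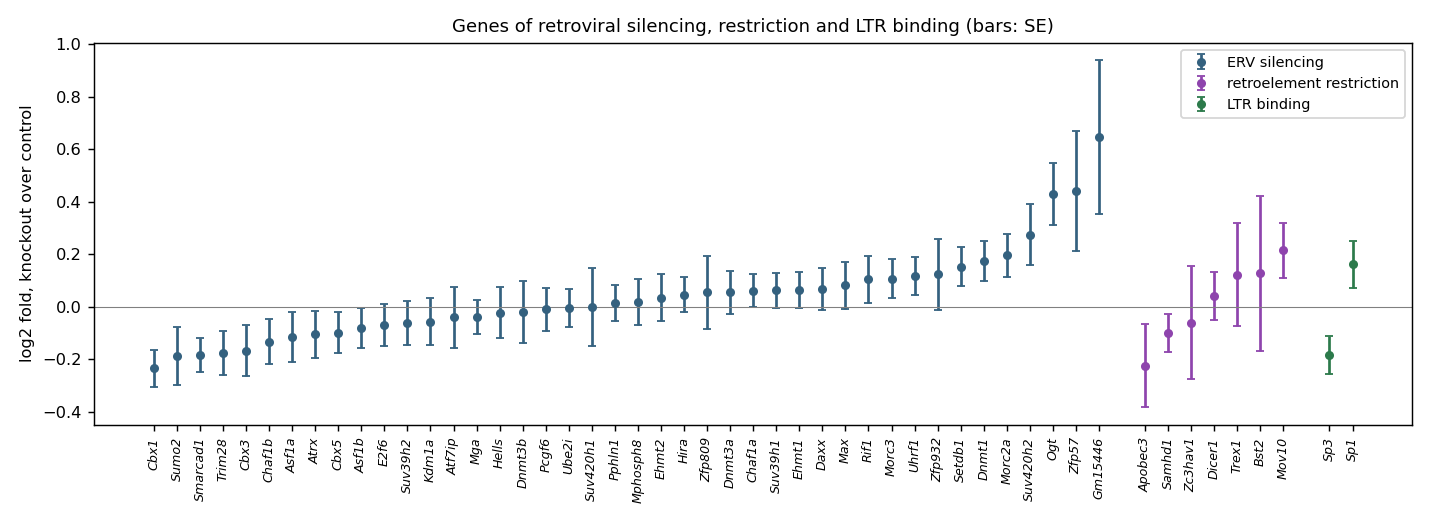
Log2 fold change of knockout over control embryos (y axis; points with SE bars) for the 51 tested genes of retroviral silencing, retroelement restriction and LTR binding, sorted within each list. The silencing genes run from -0.23 for Cbx1 to 0.65 for Gm15446, a zinc finger gene counted at 1.47 to 4.29 CPM, with none called by edgeR.

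Markers of cells in which these elements are known to be active, or that could differ in a whole embryo, were summed per library. The 8 pluripotent and germ cell markers summed to 2.58 to 3.77 CPM in knockouts and 3.29 to 4.01 CPM in controls. Of the 3 tested, edgeR called 0, and their log2 fold changes ran from -0.21 to 0.73. Dppa3 had 0 counts in the knockouts but only 5, 2 and 3 in controls 1, 2 and 3, and was not tested. The 8 trophoblast markers summed to 12.2 to 16.6 CPM in knockouts and 10.4 to 14.9 CPM in controls, mostly from Hand1, a heart gene too, with Tpbpa and Ctsq at 0 in both groups. The 8 markers of visceral endoderm and yolk sac summed to 121 to 234 CPM in knockouts and 204 to 322 CPM in controls. Of the 7 tested, edgeR called 1 lower, Ttr, where 0.957% of all 15052 tested genes were. The log2 fold changes of the 7 ran from -1.69 for Ttr to 0.23 for Apoa1, with 5 below 0. The 8 erythroid markers summed to 5463 to 8886 CPM in knockouts and 7552 to 9598 CPM in controls. The part of these cells, or of the macrophages whose markers were lower in every knockout, in the ETn and MusD difference was not tested.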

How the data were processed

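For each of 6 E10.5 embryos the authors deposited raw counts in 2 tables, by gene symbol and by repeat name, from stranded polyadenylated RNA libraries. Per the submitters' processing notes Trimmomatic, TopHat2, Bowtie2 and HTSeq were used with the build mm9; versions, strand setting and annotations were not found in the sources used here. Multiply aligned reads, 18.2% to 22.6% of alignments, were not counted in either table, so near-identical young copies are represented by reads that tell them apart. A read can enter both tables.

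Repeat names were fitted with edgeR 4.0.16 in R 4.3.3 (robust quasi-likelihood; filterByExpr, count minimum 10, total minimum 15), with gene count totals as library sizes, and 853 of 1217 names were kept. The family sum replaced its members in another fit. Genes were fitted alike with TMM scaling, and 15052 of 23366 were kept. P-values were Benjamini-Hochberg adjusted, with a threshold of 0.05. The SE of a log2 fold was taken as its size divided by the root of the F statistic. DESeq2 1.42.0 was an alternative, with others of scaling, filter, block and libraries. Scripts were tested on simulated data. For every pair of libraries chi-square per degree of freedom was at least 12.4, so none was treated as a duplicate.

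The members, lists and alternatives were chosen with earlier results of these data known. Named were all members, the H3.3 genes, 6 fixed silencing genes and the 4 tested genes of smallest p per list. Other repeat counts exclude structural RNA and simple or low complexity repeats. The listed Fam208a and Ago2 were not matched by symbol and not used.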

Additional observations from a re-analysis of the deposited data

How the results depend on the processing

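The family's log2 fold change of 0.67 stayed above 0 under every alternative but 1. It was 0.18 with TMM scaling of the repeat counts, 0.24 with other repeat counts and 0.18 with reads outside genes as the scale, the last 2 chosen after seeing the data; with knockout 2 also left out, a later addition, it was 0.081 and -0.044 on these 2 scales. There MMETn-int was at -0.11 by reads outside genes and RLTRETN_Mm at -0.088 by other repeat counts and -0.21 by reads outside genes. With knockouts 2 and 3, whose file names share a code, summed as 1 library, the family's value was 0.69. Without single libraries it ran from 0.56 to 0.79. The number of repeat names called was 0 by edgeR, 2 by DESeq2, and 0 to 574 without single libraries. Members with the groups apart numbered 5 by gene counts with any library left out, where 10.4% to 83.9% of all tested names were apart and higher (83.9% without knockout 2, 38.1% without control 3), 2 by other repeat counts and 1 by reads outside genes. The log2 fold change of the family's share of all repeat counts was 0.86 (0.64 to 1.04 without single libraries) but 0.24 without structural RNA and simple repeats. The internal share differed by 0.68 percentage points (0.30 to 0.98 without single libraries) and by 6.59 without MMETn-int, an alternative added later. Among the 51 silencing and related genes edgeR called 0, DESeq2 1 (Ogt) where it called 5.19% of all genes, and edgeR 0 to 4 without single libraries, the 4 being without knockout 2, where 10.9% of all genes were called; the cause was not tested.

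The deviations of same-numbered embryos from their group means had an r of -0.10, 0.23 and 0.31 over genes for numbers 1, 2 and 3. Over repeat names these were -0.35, 0.08 and 0.50. Differently numbered pairs ran from -0.48 to 0.39 over genes and from -0.55 to 0.51 over repeat names. With 3 embryos a group, these values cannot show whether same-numbered embryos share a litter or batch, and the labels do not say. With the number as a replicate block the family's log2 fold change was 0.67, 0 repeat names were called, and gene calls were 589 against 227 of 15052, with 1 of the 51 (Ogt). ETnERV-int, at 21 to 49 counts a library, is limited most by depth, and a filter of at least 5 CPM in 3 libraries gave no value for it. Repeat counts varied more than gene counts, with a biological coefficient of variation of 30.7% against 12.2%.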

Other observations

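Another retroviral name set knockout 2 apart in the opposite direction, chosen after its values were seen. MuLV-int, the internal region of murine leukaemia virus-like elements, had 146, 1.33 and 78.5 counts per 1000000 gene counts in knockouts 1, 2 and 3, against 93.4, 107 and 117 in controls 1, 2 and 3. Knockout 2 held 37 counts where the other 5 libraries held 2188 to 3651. RMER17A-int, the other repeat name called by DESeq2, had 17.8, 36.2 and 23.3 in the knockouts, against 9.22, 11.6 and 10.7 in the controls, and like ETnERV3-int was highest in knockout 2.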
